A study of Mus musculus with 4 samples.

Results

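The transcripts of the mouse mitochondrial genome were examined in OG2ES cells, a mouse embryonic stem cell line, as the 37 rows of the deposited expression table whose name starts with mt-, out of 50600 rows in all. These 37 rows are every row placed on the mitochondrial chromosome. They comprise 13 messenger RNAs, 2 ribosomal RNAs and 22 transfer RNAs, and their coordinates were the same as in the GENCODE vM21 annotation of mm10 for all 37. The series held 4 RNA-seq libraries, 2 of wild-type cells (WT) and 2 of cells lacking the gene Myh9 (Myh9 KO), the non-muscle myosin IIA heavy chain gene. All 4 came from the same line, kept in mES medium with 2i, a pair of kinase inhibitors used to keep such cells undifferentiated. The labels do not say how the Myh9 KO cells were made, whether they were 1 clone, or whether replicates were separate cultures. A difference between cell populations and the loss of Myh9 therefore cannot be told apart, and each p-value measures only how far these libraries spread, possibly for technical reasons.

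The mitochondrial genome is a small circle that is transcribed from both strands into long precursors. In most places a transfer RNA lies between neighbouring messenger and ribosomal RNAs, and cutting it out releases them. The messenger RNAs encode membrane subunits of respiratory complexes I, III and IV and of ATP synthase, complex V, and all other subunits of these complexes come from nuclear genes. Genes on the plus strand of the reference are copied from the heavy strand, and those on the minus strand from the light strand. Of the 37 rows, 28 lie on the plus strand (12 messenger, 2 ribosomal and 14 transfer RNAs) and 9 on the minus strand, which are mt-Nd6 and 8 transfer RNAs. RNA was enriched on oligo-dT beads, per the labels' protocols, so capture of mitochondrial RNAs may depend on their short poly(A) tails. Neither the tails nor the capture was measured. The protocols describe no step that marks the strand, so the strand in what follows is that of the annotated gene and not that of the sequenced RNA.

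The deposited values are whole numbers that summed to between 992098 and 992317 in each library, nearly the same total. They were treated as a normalized score, since the depth of the libraries is unknown and it is not stated whether values are per transcript length. Levels of different genes are for that reason not ranked against each other, and each value is relative to the rest of its library. In bulk RNA, fewer cells with a transcript and less of it in each cell cannot be told apart. Myh9 had values of 83 and 100 in WT against 9 and 9 in Myh9 KO (log2 fold change -3.13 with an SE of 0.11, adjusted p = 2.16e-06 by limma). All 8 ES cell markers were above 0, and by limma 2 rose and 3 fell, where 11.1% of all genes tested rose and 12.1% fell. Their sum went from 9348 and 9597 in WT to 8127 and 7951 in Myh9 KO, mostly through Dppa5a (4755 and 4841 against 3438 and 3205). Sox2 stood at 177 and 183 against 126 and 121, and Pou5f1 lay between 3045 and 3189. Zfp42 stood at 140 and 142 in WT against 210 and 181 in Myh9 KO, and Klf4 at 51 and 59 against 65 and 69. Nanog was at 616 and 622 against 664 and 641, and Esrrb at 498 and 555 against 461 and 488. Tfcp2l1 was at 66 and 73 against 59 and 57. The part of these markers in the mitochondrial results was not tested. Of 10 feeder fibroblast markers 7 were listed at 0 throughout, among them Col1a1, Col1a2 and Col3a1, and the 10 summed to between 4 and 7 in a library. The summed markers of endoderm, mesoderm, ectoderm and trophoblast reached at most 7 in any library, and 1 of them was called higher, the endoderm marker Gata4 (1 and 2 in WT, 5 and 5 in Myh9 KO).

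All 15 mitochondrial messenger and ribosomal RNA rows were above 0 in every library, and every one was lower in both Myh9 KO libraries than in both WT libraries. Both Myh9 KO values lay below both WT values in 27.3% of all genes tested. By limma on log2(value + 1), with random decimals in place of those the whole numbers lack, all 15 rows fell at an adjusted p under 0.05, where 12.1% of 11231 genes tested were called lower and 11.1% higher. The log2 fold changes of the 15 rows ran from -1.36 to -0.60 with a median of -0.90, against a median of -0.01 over all genes tested. All genes called numbered 1355 lower and 1245 higher, or 714 and 676 without WT 1 and 673 and 774 without WT 2. On the whole numbers as deposited, with no random decimals, 6 of the 15 rows passed (mt-Rnr2, mt-Nd2, mt-Co1, mt-Nd4l, mt-Nd4 and mt-Nd6), where 7.96% of genes were called lower and 7.17% higher.

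**Figure D1:**
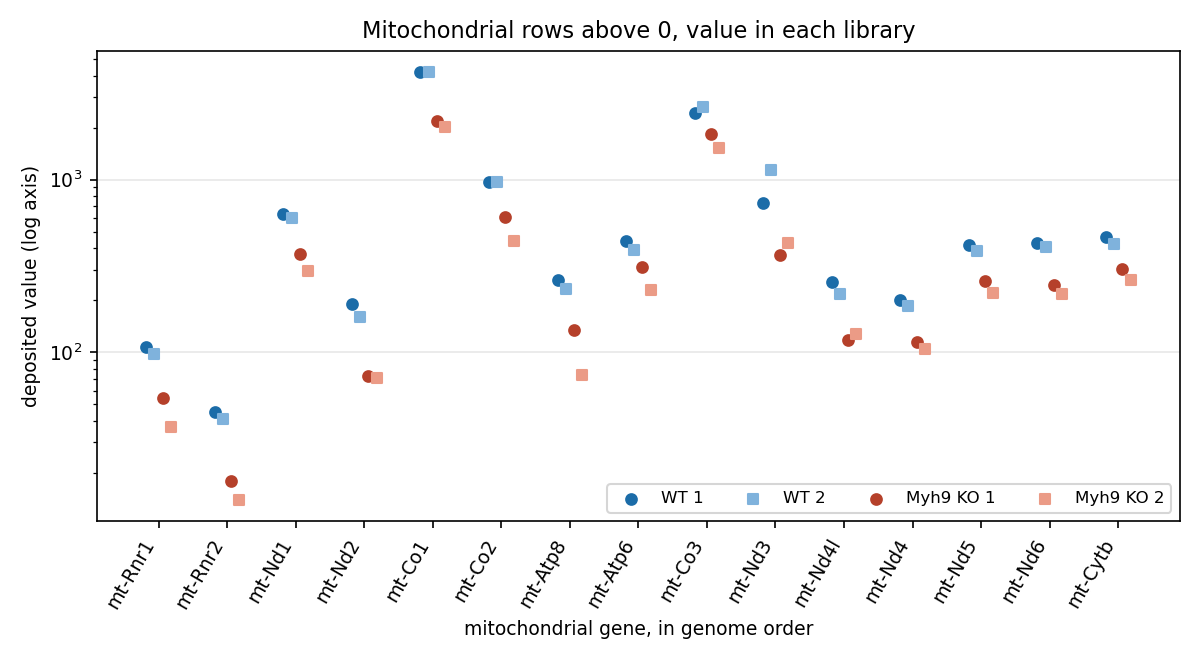
Deposited value (log axis) of each mitochondrial row above 0 in each of the 4 libraries, with genes in genome order along the x axis and WT in blue and Myh9 KO in red. In all 15 genes both red points lie below both blue points, and in 13 of 15 the Myh9 KO 2 point is below the Myh9 KO 1 point.

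Together the 37 rows made up 1.19% of all values summed over WT 1 and 1.21% for WT 2, against 0.705% for Myh9 KO 1 and 0.612% for Myh9 KO 2. The groups did not overlap, and the exact permutation test gave p = 0.333, the smallest that 2 libraries against 2 allow. The 13 messenger RNAs made up nearly all of this, with summed values of 11625 and 11908 in WT against 6927 and 6021 in Myh9 KO. The 2 ribosomal RNAs summed to 152 and 139 in WT against 72 and 51 in Myh9 KO. The 22 transfer RNAs summed to 0 in all 4 libraries.

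The ribosomal RNA rows had log2 fold changes in the lower part of the range. They code for the RNA of the small (mt-Rnr1) and large (mt-Rnr2) subunit of the mitochondrial ribosome, and both RNAs carry very short A tails. mt-Rnr1 (ENSMUSG00000064337, chrMT:70-1024, plus strand) had values of 107 and 98 in WT against 54 and 37 in Myh9 KO (log2 fold change -1.17 with an SE of 0.15, adjusted p = 0.0011 by limma). mt-Rnr2 (ENSMUSG00000064339, chrMT:1094-2675, plus strand) had values of 45 and 41 in WT against 18 and 14 in Myh9 KO (log2 fold change -1.36 with an SE of 0.12, adjusted p = 0.000196). For both genes Myh9 KO 2 was the lowest library. Per 100 units of mitochondrial messenger RNA, ribosomal RNA stood at 1.31 and 1.17 in WT against 1.04 and 0.847 in Myh9 KO. These ratios, which do not depend on scaling between libraries, did not overlap between groups (exact permutation p = 0.333, the smallest possible).

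All 22 transfer RNA rows were listed at 0 in all 4 libraries. They are 59 to 75 bases long, and the shortest and longest are shown because their size sets them apart from the rows that were measured. They are mt-Ts2 (serine, chrMT:11613-11671) and mt-Tl1 (leucine, chrMT:2676-2750), both on the plus strand, read from the GENCODE vM21 transcripts.
mt-Ts2: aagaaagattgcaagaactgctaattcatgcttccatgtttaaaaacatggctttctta
mt-Tl1: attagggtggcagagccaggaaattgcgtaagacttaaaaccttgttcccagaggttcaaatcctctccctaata
None of the other 1002 rows of at most 75 bases had a value above 0 in any library either, and the shortest row above 0 outside the mitochondrial genome was 107 bases long. Of 5777 such rows under 150 bases 10 were above 0, whereas 29.7% of 43812 rows of 200 bases or more were. The listed 0 of the transfer RNAs was thus shared by every row of their size, and these data give no measure of transfer RNA in either group.

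Complex I, the NADH dehydrogenase, takes 7 subunits from the mitochondrial genome, all of them membrane subunits, and all 7 fell. Their summed values were 2853 and 3091 in WT against 1547 and 1466 in Myh9 KO. mt-Nd2 (chrMT:3914-4951) had values of 190 and 159 in WT against 73 and 71 in Myh9 KO, with a log2 fold change of -1.25 (SE of 0.08 and adjusted p = 5.43e-05 by limma), the most negative of the 7. mt-Nd1 (chrMT:2751-3707) had values of 630 and 598 in WT against 373 and 295 in Myh9 KO (log2 fold change -0.88). mt-Nd4 had values of 200 and 186 in WT against 114 and 104 in Myh9 KO (-0.82), and its upstream neighbour mt-Nd4l had 254 and 216 in WT against 118 and 127 in Myh9 KO (-0.93). In each of these 4 genes the gap between groups was wider than that between replicates. mt-Nd5 (chrMT:11742-13565), had values of 416 and 388 in WT against 257 and 220 in Myh9 KO (-0.75 with an SE of 0.08, adjusted p = 0.000349). mt-Nd3 had the widest spread within a group, with values of 732 and 1135 in WT against 368 and 432 in Myh9 KO (-1.19 with an SE of 0.17, adjusted p = 0.00196).

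mt-Nd6 (ENSMUSG00000064368, chrMT:13552-14070) is the only messenger RNA coded on the minus strand and is copied from the light strand promoter, so it was set against the plus strand genes. Its values were 431 and 409 in WT against 244 and 217 in Myh9 KO, and it fell by 0.86 on the log2 scale (SE of 0.06 and adjusted p = 8.57e-05 by limma). The 12 plus strand messenger RNAs had a median log2 fold change of -0.89 and a range from -1.29 to -0.60, which includes that of mt-Nd6. Per 100 units of the plus strand messenger RNAs, mt-Nd6 stood at 3.85 and 3.56 in WT against 3.65 and 3.74 in Myh9 KO. The Myh9 KO ratios lay between the WT ratios (exact permutation p = 1). With 2 libraries a group this test cannot go below 0.333, so it says nothing on whether the strands differed. The last 14 bases of mt-Nd6 and mt-Nd5 are the same stretch of DNA read from opposite strands (chrMT:13552-13565). The last 30 bases of each gene show this shared end, in capitals, where unstranded reads cannot be assigned.
mt-Nd5: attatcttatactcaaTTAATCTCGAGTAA
mt-Nd6: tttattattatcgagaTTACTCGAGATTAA
Beyond this stretch, RNA of the plus strand precursor that runs opposite mt-Nd6 would also be counted in its row, since the libraries carry no strand mark. How well the oligo-dT beads captured mt-Nd6 RNA itself was not measured, which also limits the comparison of strands. mt-Nd6 also differs in composition, with 28.1% G and 5.97% C, where the 12 plus strand messenger RNAs are C-rich and G-poor, with 5.88% to 16.1% G.

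Complex III receives a single mitochondrial subunit, cytochrome b. mt-Cytb (ENSMUSG00000064370, chrMT:14145-15288) had values of 467 and 425 in WT against 303 and 263 in Myh9 KO (log2 fold change -0.66 with an SE of 0.07, adjusted p = 0.000626 by limma). The fold of Myh9 KO over WT was 0.635, among the milder changes of the 15 rows.

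Complex IV, cytochrome c oxidase, has a catalytic core of 3 mitochondrial subunits, and all 3 fell, with sums of 7600 and 7770 in WT against 4630 and 3989 in Myh9 KO. mt-Co1 (ENSMUSG00000064351, chrMT:5328-6872), the haem-bearing subunit, had values of 4193 and 4178 in WT against 2195 and 2022 in Myh9 KO. Its fold of Myh9 KO over WT was 0.503 (95% confidence interval of the log2 fold change -1.09 to -0.89, limma adjusted p = 6.83e-06). mt-Co2 (chrMT:7013-7696) had values of 965 and 968 in WT against 606 and 442 in Myh9 KO (log2 fold change -0.90). Its WT libraries were almost equal, and the Myh9 KO libraries lay further apart. mt-Co3 (chrMT:8607-9390) had values of 2442 and 2624 in WT against 1829 and 1525 in Myh9 KO (-0.60 with an SE of 0.08, adjusted p = 0.00125). mt-Co3 was at -0.67 with its copy merged and at -0.22 after removal of the GC content and length trend. Complex IV stood at 2.66 and 2.51 units per unit of complex I in WT and at 2.99 and 2.72 in Myh9 KO (exact permutation p = 0.333, the smallest possible).

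Complex V, the ATP synthase, has mitochondrial subunits 8 and 6 in its membrane part. mt-Atp8 (ENSMUSG00000064356, chrMT:7766-7969) had values of 263 and 233 in WT against 135 and 74 in Myh9 KO, a log2 fold change of -1.29 (SE of 0.22 and adjusted p = 0.00443 by limma). mt-Atp6 (ENSMUSG00000064357, chrMT:7927-8607) had values of 442 and 389 in WT against 312 and 229 in Myh9 KO, a log2 fold change of -0.63 (SE of 0.13 and adjusted p = 0.00924). Both genes had their lowest value in Myh9 KO 2, and mt-Atp8 had the lowest ratio of Myh9 KO 2 to Myh9 KO 1 of the 15 rows, at 0.548. Without WT 1, mt-Atp6 had an adjusted p of 0.0508, the single loss of a call among the 15 rows when a library was left out. The 2 proteins are read from 1 messenger RNA in overlapping frames, so their separate values depend on how reads of the shared part were assigned. The shared 43 bases (chrMT:7927-7969) are in capitals, at the end of mt-Atp8 and at the start of mt-Atp6.
mt-Atp8: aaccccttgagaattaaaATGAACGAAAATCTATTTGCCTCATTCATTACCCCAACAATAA
mt-Atp6: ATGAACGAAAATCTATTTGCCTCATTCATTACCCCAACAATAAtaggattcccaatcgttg
mt-Nd4l and mt-Nd4 overlap in the same way, by 7 bases (chrMT:10167-10173).

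**Figure D2:**
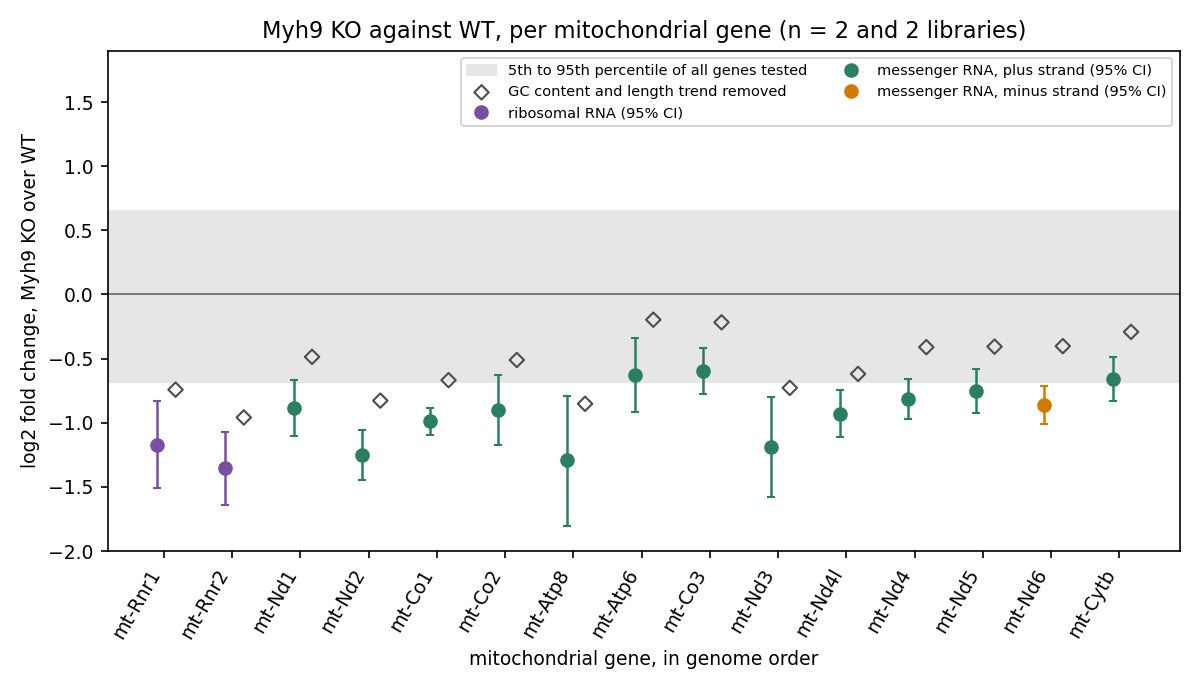
Log2 fold change of Myh9 KO over WT for each mitochondrial row above 0, in genome order, with 95% confidence intervals from limma (n = 2 and 2 libraries). Purple marks ribosomal RNA, green and orange messenger RNA of the plus and minus strand, open diamonds the values after removal of the GC content and length trend, and the grey band the 5th to 95th percentile of all genes tested (-0.68 to 0.65). All 15 circles lie below 0, from -1.36 for mt-Rnr2 to -0.60 for mt-Co3, and every diamond lies above its circle.

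Because oligo-dT beads bind A tails, the ends of the messenger RNAs may bear on what was measured, which was not tested. Of the 13 messenger RNA rows 3 end in a lone T after their last whole codon. In such genes the poly(A) tail itself completes the stop codon, so the coding part is joined directly to the tail. The last 30 bases of these 3 genes are shown with that T in capitals.
mt-Co3: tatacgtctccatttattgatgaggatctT
mt-Nd4: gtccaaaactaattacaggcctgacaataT
mt-Cytb: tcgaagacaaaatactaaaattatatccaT
Their log2 fold changes were -0.60, -0.82 and -0.66, and those of the 10 messenger RNA rows that end in a whole codon ran from -1.29 to -0.63, a range that holds mt-Nd4 and mt-Cytb and lies just below mt-Co3. Row ends need not be RNA ends. The last 2 bases of mt-Nd1 (-0.88) and of mt-Nd2 (-1.25) are also the first of the transfer RNA rows mt-Ti and mt-Tw. If cut there, these 2 would also end in a lone T. The last base of mt-Atp6 (-0.63), which sets the upper end of the range of the 10, is also the first of mt-Co3. If cut there, mt-Atp6 would end in TA, without the last base of its stop codon. The mt-Atp8 and mt-Nd4l rows end inside mt-Atp6 and mt-Nd4. The sorting into 3 and 10 thus holds for the annotated rows only.

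The fold changes of the 15 rows were not uniform. Across the 15 rows the fold change rose with the position of the gene along the plus strand (Pearson's r 0.591, Spearman's rho 0.589) and with GC content (Pearson's r 0.517, Spearman's rho 0.457), and was nearly unrelated to length (Spearman's rho 0.104). These are descriptions over 15 rows that share the same 4 libraries and, in part, the same precursor. mt-Rnr1, mt-Rnr2 and mt-Nd2 at the start of the circle were among the 5 most negative, and mt-Nd5, mt-Nd6 and mt-Cytb at its end ranged from -0.86 to -0.66. Several rows broke this order. Near the start mt-Nd1 was at -0.88, and in the middle of the circle mt-Atp8 and mt-Nd3 were at -1.29 and -1.19 and mt-Atp6 and mt-Co3 at -0.63 and -0.60.

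The mitochondrial rows are poor in GC, from 31.9% in mt-Atp8 to 41.1% in mt-Nd4l, and GC-poor nuclear genes moved the same way to a smaller extent. The 677 tested nuclear genes in this GC range had a median log2 fold change of -0.18, with 17.3% called lower and 2.36% higher. For Myh9 KO 2 over Myh9 KO 1, replicates of the same group, their median log2 ratio was -0.18 and that of the 15 mitochondrial rows -0.22, against 0 over all genes tested. For WT 2 over WT 1 the median was 0 for these nuclear genes and over all genes tested, and -0.10 for the mitochondrial rows. With the trend of each library on GC content and transcript length removed, the 15 rows kept negative values, with a median of -0.51 and a range from -0.96 to -0.20. By limma 13 of the 15 were then called lower, where 11.9% of all genes were. mt-Atp6 (log2 fold change -0.20, adjusted p = 0.0791) and mt-Nd3 (-0.73, adjusted p = 0.0715) were the 2 that did not pass. The ribosomal RNAs (-0.74 and -0.96), mt-Atp8 (-0.85) and mt-Nd2 (-0.83) were then the most negative, with mt-Nd3 close behind. Before the removal mt-Nd3 (-1.19) had been slightly below mt-Rnr1 (-1.17).

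A block of chromosome 1 holds near-perfect copies of part of the mitochondrial genome, and the table lists 7 of its genes as rows of their own. These rows lie within chr1:24611535-24616197 on the minus strand, a span of 4663 bases, and each has at least 50% of its 50-base words in the mitochondrial genome. Gm28437 (copy of mt-Co3), Gm10925 (mt-Atp6), Gm10222 (mt-Nd4l), Gm28661 (mt-Co2) and Gm28439 (the first 876 bases of mt-Nd4) were identical to their mitochondrial gene over the whole row. Gm28438, the copy of mt-Nd3, differed at 1 of 345 aligned bases, written T3C with positions counted from 1 at the 5′ end of mt-Nd3. Gm29216, the copy of the last 492 bases of mt-Co1, differed at 6 bases, all at its 5′ edge, and was identical over the remaining 479. Within the aligned part, the few differing bases are all that could separate a mitochondrial read from a nuclear one. Gm29216 starts at base 1054 of mt-Co1, so reads of earlier bases have no counterpart in that row. The first 60 aligned bases of these 2 pairs are shown with the differing bases in capitals.
mt-Nd3: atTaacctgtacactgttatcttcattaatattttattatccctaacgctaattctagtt
Gm28438: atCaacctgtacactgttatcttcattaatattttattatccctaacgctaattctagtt
mt-Co1: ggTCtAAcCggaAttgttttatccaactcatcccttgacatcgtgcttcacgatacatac
Gm29216: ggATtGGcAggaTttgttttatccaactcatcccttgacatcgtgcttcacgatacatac

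Of these 7 copies 5 had a value above 0 in some library. Gm29216 had values of 2449 and 2066 in WT against 1644 and 1445 in Myh9 KO, and it also fell (log2 fold change -0.54 with an SE of 0.08, adjusted p = 0.00274 by limma). Gm28438 had values of 791 and 319 in WT against 504 and 163 in Myh9 KO, and Gm28437 had 391 and 170 in WT against 207 and 0 in Myh9 KO, neither called (adjusted p = 0.299 and 0.158). Gm10925 had a value of 39 in WT 2 and Gm10222 of 5 in Myh9 KO 2, and both were listed at 0 elsewhere. Gm28661 and Gm28439 were listed at 0 in all 4 libraries. A further 7 nuclear rows shared fewer words with the mitochondrial genome, and all 7 were listed at 0.

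Adding each copy to its gene brought the replicates of mt-Nd3 together in WT. The mt-Nd3 row alone differed 1.55-fold between the WT libraries, and its sum with Gm28438 was 1523 and 1454 in WT, 1.05-fold apart, and 872 and 595 in Myh9 KO. The share of this sum listed under the copy was 51.9% and 21.9% in WT 1 and WT 2, and 57.8% and 27.4% in Myh9 KO 1 and Myh9 KO 2. In Myh9 KO the summed values lay further apart than those of the mt-Nd3 row alone, at 1.47-fold against 1.17-fold, with Myh9 KO 2 now the lower library. For mt-Co3 the sums were 2833 and 2794 in WT against 2036 and 1525 in Myh9 KO, and for mt-Atp6 they were 442 and 428 in WT against 312 and 229 in Myh9 KO. For mt-Co1 the sums were 6642 and 6244 in WT against 3839 and 3467 in Myh9 KO, with 33.1% to 42.8% of them under Gm29216. The log2 ratio of the group means went from -0.99 to -0.82 for mt-Co1 and from -1.22 to -1.02 for mt-Nd3 when the copy was added, and from -0.59 to -0.66 for mt-Co3. With the copy weighted by its length relative to the gene, mt-Co1 went to -0.92. The sums and shares above use values as deposited, and it is not stated whether these are per transcript length. With the copies added, mitochondrial rows made up 1.55% and 1.48% of all values in WT against 0.943% and 0.774% in Myh9 KO. A refit with each copy merged into its gene, chosen after seeing the data, called all 15 rows lower by limma, where 12% of genes were. The 8 genes without a copy row were the 2 ribosomal RNAs, mt-Nd1, mt-Nd2, mt-Nd5, mt-Nd6, mt-Cytb and mt-Atp8. Their median log2 fold change was -1.03, and that of the 7 with one, all messenger RNAs, was -0.90. For messenger RNAs alone, the log2 ratio of the summed share was -0.87 for the 6 without a copy row and -0.86 for the 7 with one.

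**Figure D3:**
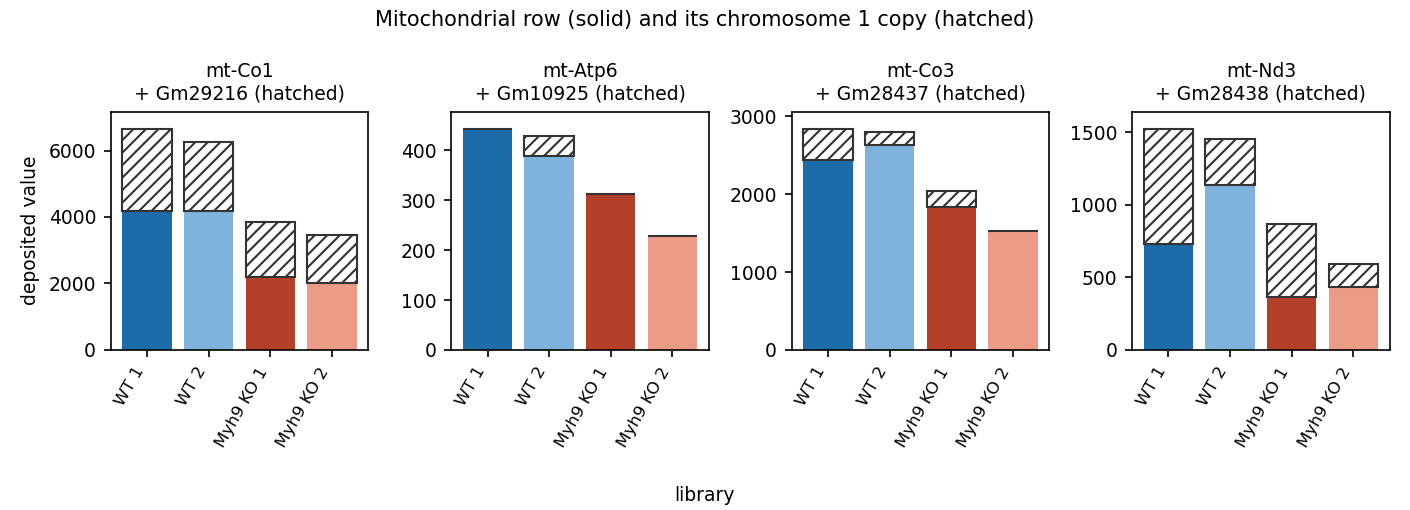
Deposited value of mt-Co1, mt-Atp6, mt-Co3 and mt-Nd3 (solid bars) with that of the chromosome 1 copy stacked on top (hatched), in each of the 4 libraries. For mt-Nd3 the solid bars differ between WT 1 (732) and WT 2 (1135), while the full bars stand at 1523 and 1454, and in all 4 panels both Myh9 KO bars are shorter than both WT bars.

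The nuclear partners of the mitochondrial subunits had fold changes near 0 at the median, and more of them fell than rose. Of 70 tested nuclear subunits of complexes I, III, IV and V, 8 rose and 17 fell by limma, where 11.1% of all genes rose and 12.1% fell. Their median log2 fold change was -0.05. Both Myh9 KO values lay below both WT values in 31 of the 70, where 27.3% of all genes tested did so. In complex I, 6 of 36 nuclear subunits rose and 7 fell, between -0.32 and 0.51. Ndufv3, an accessory subunit of the NADH-binding part, rose, with values of 259 and 262 in WT against 380 and 363 in Myh9 KO (log2 fold change 0.51 with an SE of 0.05, adjusted p = 0.000256), and Ndufb5 fell from 194 and 216 to 170 and 157 (-0.32). In complex III, 3 of 9 fell, among them the iron-sulfur protein gene Uqcrfs1 (173 and 164 to 135 and 141, -0.28). In complex IV, 2 of 10 rose and 3 fell. Cox5a fell from 961 and 933 to 770 and 744 (-0.32) and Cox4i1 rose from 1691 and 1711 to 1899 and 1905 (0.16). In complex V, 4 of 15 fell and 0 rose, among them Atp5a1, the alpha subunit of the catalytic part (1084 and 1094 to 971 and 989, -0.15). Without WT 1, 0 genes of complex III and 0 of complex V were called lower by limma, and without WT 2 or without Myh9 KO 2, 1 of complex V was. None of the 4 genes of complex II, which has no mitochondrially encoded subunit, was called by limma with or without random decimals (1 at an unadjusted p under 0.05), and their log2 fold changes lay between -0.13 and 0.01. Removal of the GC content and length trend took Cox5a to -0.05 and Uqcrfs1 to -0.11, neither called. It turned the log2 fold changes of 2 other called genes positive, Cox7c from -0.19 to 0.20 and Atp5f1 from -0.22 to 0.08, again not called. Ndufb5 (-0.26), Atp5a1 (-0.24) and Uqcr10 of complex III (-0.20) were still called lower. Called lower were then 2 nuclear subunits of complex I, 1 of complex III, 0 of complex IV and 1 of complex V. Called higher were 9, 1, 3 and 2 in the same order.

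Of 10 tested genes of mitochondrial transcription 0 passed by limma in either direction, with or without random decimals (2 at an unadjusted p under 0.05), and their median log2 fold change was -0.004. Without Myh9 KO 1, 2 of the 10 were called lower, and without WT 1, 1 was. The smallest adjusted p belonged to Mterf1a, a termination factor gene (2 and 3 in WT, 1 and 0 in Myh9 KO, adjusted p = 0.0576), and Tefm, the elongation factor gene (13 and 17 in WT, 11 and 10 in Myh9 KO, adjusted p = 0.0664). Polrmt and Tfam, named for their roles after their values were seen, encode the mitochondrial RNA polymerase and the factor that packages the DNA and starts transcription. Polrmt had values of 42 and 44 in WT against 46 and 46 in Myh9 KO, and Tfam had 24 and 33 in WT against 35 and 29 in Myh9 KO (adjusted p = 0.417 and 0.456). Of 12 genes of mitochondrial DNA replication and maintenance 2 rose and 0 fell, where 11.1% of all genes rose and 12.1% fell. The 2 were Ssbp1, the single-strand binding protein gene (98 and 102 to 149 and 132, log2 fold change 0.48), and Dguok, a nucleoside kinase gene (36 and 34 to 45 and 45, 0.35).

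Genes that act on mitochondrial RNA after it is made differed by list in the number called, where 11.1% of all genes rose and 12.1% fell. Of 23 genes of RNA processing and stability 1 fell, Fastk, whose protein family binds mitochondrial messenger RNAs (88 and 83 to 66 and 75, log2 fold change -0.27, limma adjusted p = 0.0385). Lrpprc, which with its partner holds mitochondrial messenger RNAs stable and was named after its values were seen, had values of 13 and 14 in WT against 14 and 11 in Myh9 KO (adjusted p = 0.651). Of 19 tested genes that modify ribosomal and transfer RNA, Rpusd3 (28 and 29 to 44 and 49, 0.67) and Gtpbp3 (34 and 41 to 49 and 54, 0.45) rose. Trmt61b, at low values (6 and 6 to 3 and 1, -1.21), and Pus1 (66 and 69 to 57 and 57, -0.24) fell. By limma without random decimals Rpusd3 and Pus1 were still called, and Gtpbp3 and Trmt61b were not (adjusted p = 0.152 and 0.179). Of 19 aminoacyl-tRNA synthetase genes 5 rose and 0 fell, where 11.1% of all genes rose, among them Lars2 (97 and 83 to 132 and 133, 0.56) and Gars (274 and 283 to 356 and 346, 0.33). Of 11 tested translation and membrane insertion factors limma called 0 in either direction, with and without random decimals (1 at an unadjusted p under 0.05), and Tufm, the elongation factor gene with the smallest p, had values of 249 and 235 in WT against 272 and 268 in Myh9 KO (adjusted p = 0.0599). In this list 2 genes were called higher after removal of the GC content and length trend, and 1 each with the replicate block, with a minimum mean value of 5 and with quantile normalization.

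Regulators of biogenesis and markers of the organelle went both ways, where 11.1% of all genes rose and 12.1% fell by limma. Of 8 tested regulators of mitochondrial biogenesis 2 rose and 1 fell. Nrf1, a factor that activates many nuclear genes of the respiratory chain, rose, with values of 64 and 70 in WT against 95 and 93 in Myh9 KO (log2 fold change 0.48, limma adjusted p = 0.00205), Myc rose from 26 and 26 to 36 and 41 (0.53), and Gabpb1 fell from 22 and 22 to 17 and 14 (-0.47). Of 15 genes of import, chaperones and the matrix 3 rose and 4 fell. Phb2, a prohibitin gene of the inner membrane, rose from 725 and 724 to 1056 and 1113 (0.58), and Tomm20, an import receptor gene, rose from 399 and 362 to 457 and 493 (0.32). Vdac1, the outer membrane channel gene, fell from 743 and 740 to 538 and 525 (-0.48), and Hspd1, the matrix chaperonin gene, fell from 328 and 345 to 298 and 258 (-0.28, or -0.15 and not called after removal of the GC content and length trend).

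Rises among these nuclear genes lay mostly on chromosomes 6 and 8, whose genes were higher as a group. Of all genes tested, 38.0% of 1201 on chromosomes 6 and 8 were called higher, against 7.87% of 10030 elsewhere. Over all 13 lists, 22 of 191 tested genes rose and 25 fell, where 11.1% of all genes rose and 12.1% fell. Of the 22 rises 16 came from the 22 members on chromosomes 6 and 8, among them Ssbp1, Dguok, Rpusd3, Gtpbp3, Gars, Nrf1, Cox4i1, Phb2 and Tomm20. Of the 169 members on other chromosomes 6 rose and 25 fell (3.55% and 14.8%), where 7.87% of all genes there rose and 13% fell. Among these members, the 64 nuclear subunits of complexes I, III, IV and V gave 3 rises and 17 falls (4.69% and 26.6%). These chromosomes were singled out after their values were seen, and their part in these rises was not tested. The list counts were unstable: without WT 1 the 191 genes gave 15 rises and 4 falls, without WT 2 they gave 14 and 7, and without Myh9 KO 2 they gave 21 and 14. After removal of the GC content and length trend they gave 36 and 12, and with each library centred on its median 20 and 15.

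**Figure D4:**
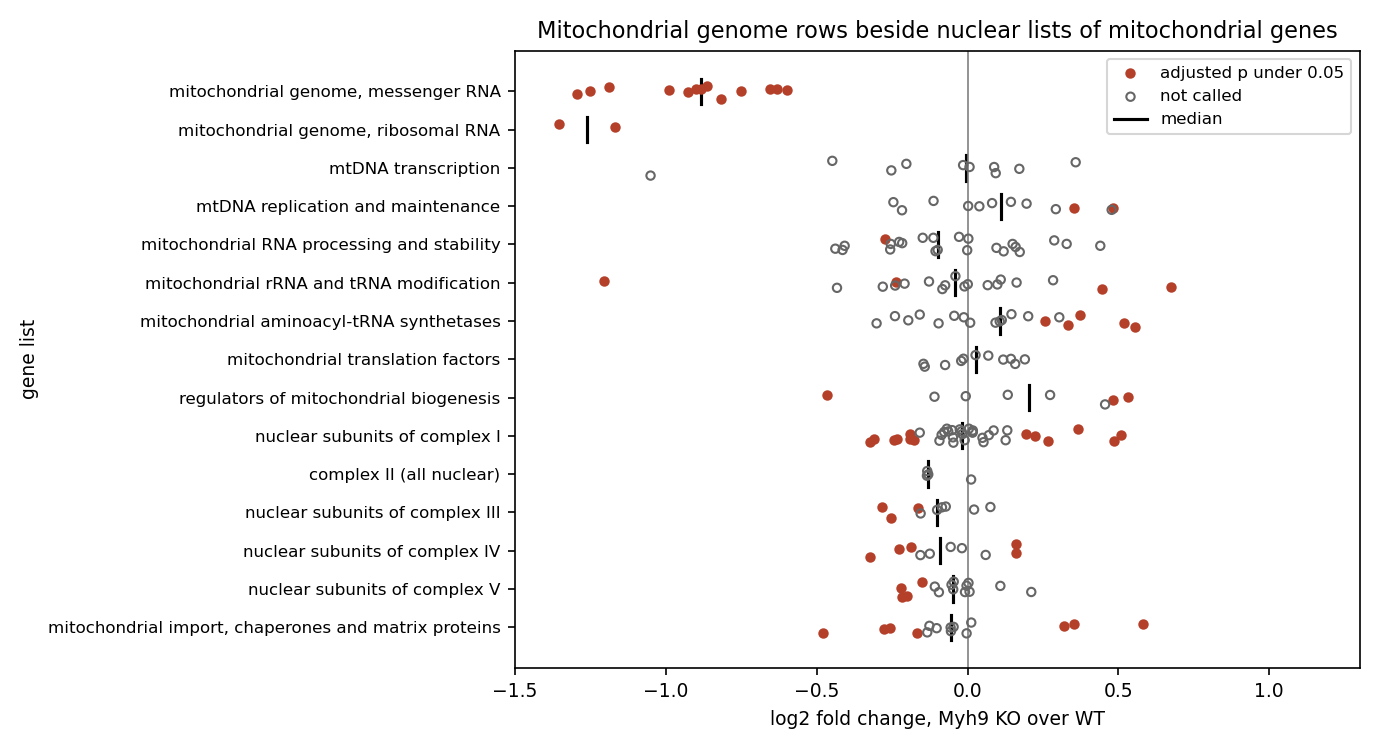
Log2 fold change of Myh9 KO over WT for each tested gene of the mitochondrial genome and of 13 lists of nuclear genes, with called genes in filled red, genes not called as open circles and the list median as a black line. The 13 messenger RNAs (median -0.88) and 2 ribosomal RNAs (median -1.26) of the mitochondrial genome lie to the left, and the medians of the 13 nuclear lists lie between -0.13 and 0.20.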

How the data were processed

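RNA-seq values of 2 WT and 2 Myh9 KO libraries were used. The unit is not given in the sources used here; the deposited values were taken as a score, whole numbers with near-equal totals. Bowtie2 2.2.5, RSEM 1.3.0 and bcl2fastq, with builds mm10 and hg38, are listed, per the submitters' processing notes, with no role. Rows with a mean value of at least 1 were fitted with limma 3.58.1 in R 4.3.3 (trended prior, no block) on log2(value + u + 1). Here u is a uniform random number from 0 to 1, and estimates and Benjamini-Hochberg adjusted p are medians over 25 draws; an adjusted p under 0.05 is called. Pseudocounts understate changes of low genes.

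The fit was tested on simulated whole numbers for 11231 genes with 200 changed. Unchanged genes made up 1.16% of 173 calls with random decimals and 72.6% of 449 calls without; with 2000 changed, they made up 2.78% of 1943 calls and 17.1% of 1923 calls. With 200 changed and random decimals, the fit found 68.7%, 92.5% and 95.5% of genes changed 1.5-, 2- and 4-fold. The simulation dropped decimals, gave genes of like mean the same spread and drew independent noise. The data may differ in each of these, so the rates need not carry over.

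Shares and ratios were tested by two-sided exact permutation. Sequences, lengths and GC content came from the longest GENCODE vM21 transcript; 50376 of 50600 identifiers matched. Members, lists and the fit were chosen with earlier results of these data known. Named genes are all mitochondrial rows, Myh9, the nuclear copies and, per list, up to 2 called genes with the smallest p in each direction, or 2 where none was called. Nuclear genes with pseudogenes may share reads with them. Alternatives covered decimals, pseudocount, filter, scaling, GC content, variance prior, replicate block and each library left out.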

Additional observations from a re-analysis of the deposited data

How the results depend on the processing

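The 15 mitochondrial rows kept a negative log2 fold change under every alternative run. All 15 were called lower with another pseudocount, filter or scaling, with the copies merged and with a replicate block. The exceptions were 13 after removal of the GC content and length trend, 14 without WT 1, 10 with a constant variance prior and 6 without random decimals. Over the libraries left out, 14 to 15 were called. The log2 ratio of the share of all mitochondrial rows ranged from -0.97 to -0.77 over the libraries left out and was -0.82 with the copies added and -0.87 with the mitochondrial rows taken out of the total. Over all genes tested, calls fell to 894 lower and 805 higher without random decimals and to 549 and 503 with a constant variance prior. Over the libraries left out they ran from 673 to 1565 lower and from 676 to 1315 higher. Over the 13 nuclear lists, calls were 11 higher and 11 lower without random decimals, 4 and 1 with a constant variance prior, 36 and 12 after removal of the GC content and length trend, and 15 lower with median centring. Over the libraries left out they ran from 14 to 23 higher and from 4 to 26 lower. The cause of these shifts was not tested. With the replicate block, 15 mitochondrial rows, 1383 genes lower and 1287 higher were called; same-numbered libraries deviated together only weakly (r = 0.116 over 8228 genes), and 2 pairs cannot show that the numbers pair the samples. The whole-number values hide changes below 1 unit, and the depth is unknown.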
